A study of Homo sapiens with 9 samples.

Results

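Proteasome genes were followed in ribosome footprints of the human hepatoma line Huh-7. The members are the genes whose symbol starts with PSMA, PSMB, PSMC, PSMD, PSME, PSMF or PSMG followed by a digit. They number 41 of the 9221 genes in the authors' deposited tables, with 40 of 9157 in the table for PF8503, 41 of 8839 in the table for PF846 and 40 in both. Cells received 1.5 μM PF8503 (PF-06378503), 1.5 μM PF846 (spelled PF-067446846 in the sample titles and PF-06744846 in the treatment notes) or 0.5% DMSO as vehicle for 1 hr, with 3 libraries per condition. The compounds are related inhibitors of translation that bind in the exit tunnel of the ribosome. The values used are the authors' means over the libraries of a condition, in read counts divided by DESeq size factors (normalized counts). No value of a single library was used, so the depth per library is unknown, no replicate error is given and no difference was tested here. The library names place vehicle in lanes 1, 1 and 5, PF846 in lanes 2, 2 and 6 and PF8503 in lanes 4, 4 and 8, and a lane effect cannot be told apart from a compound effect. The hepatocyte markers looked for were all listed, 12 of 12, led by AFP with a vehicle mean of 212970 normalized counts and ALB with 148370. Of 9 markers of blood, endothelial and stromal cells, 3 were listed, namely LYZ with a vehicle mean of 7769, PECAM1 with 170 and ACTA2, which is in the PF846 table only.

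The proteasome is the protease that degrades ubiquitin-tagged proteins. Its 20S core is a stack of rings of alpha subunits, which form the gate, and beta subunits, of which PSMB5, PSMB6 and PSMB7 carry the active sites. The 19S particle caps the core, with a base that holds the ATPases PSMC1 to PSMC6 and a lid that holds the deubiquitinating enzyme PSMD14. Activators (PSME genes) can cap the core in place of the 19S particle, PSMF1 is an inhibitor, and PSMG1 to PSMG4, PSMD5, PSMD9 and PSMD10 are chaperones of assembly. In a complex of fixed composition each subunit is needed in set proportion, and footprints per codon are a measure of how much of each is being made. Of the 41 members, 40 have such a part. PSMC3IP, a recombination factor of meiosis taken in by its name alone, is given apart. The tables hold 11 of the 14 standard core subunits, 9 of 9 base and 8 of 8 lid subunits with such a symbol, 4 activators, the inhibitor and 7 chaperones. PSMA2, PSMA6, PSMB3 and the replacing subunits PSMB8, PSMB9, PSMB10, PSMB11 and PSMA8 are not analysed here.

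Proteasome genes are known targets of the transcription factor NRF1 (gene NFE2L1), which binds antioxidant response elements, so RefSeq promoters (GRCh38.p14, 250 bases before to 50 after the start) were searched for TGACNNNGC on either strand. Of the 40 members with a part in the proteasome, 34 were matched to a promoter in that table (not PSMA7, PSMB1, PSMB6, PSMB7, PSMD4 and PSMG3), and 11 of these (32.4%) hold the letters. The same letters are in 15.6% of the promoters of 7626 genes of the deposited tables and in 13.6% of all 27305 promoters. Among core and 19S genes the share was 4 of 23 (17.4%), and the other matches were in PSME1, PSME2, PSME4, PSMD5, PSMD9, PSMG1 and PSMG2. The windows of the 19S genes and of the activator pair PSME1 and PSME2 are shown, as those of the 26S particle and its best known alternative cap, 5′ to 3′ on the strand of the gene, with the match in capitals. A match is in letters only, and binding was not measured. The windows lie at chr19:39971184-39971208 (PSMC4), chr2:231056898-231056916 (PSMD1), chr17:67366726-67366750 (PSMD12), chr17:39980762-39980786 and chr17:39980832-39980856 (PSMD3), chr14:24136100-24136124 (PSME1) and chr14:24146769-24146793 (PSME2). PSMD12 and PSME2 are on the reverse strand and the others on the forward strand.
PSMC4: agaggccgGCTTGGTCActatggag
PSMD1: gaggcgacTGACTGAGCag
PSMD12: acaaaaccTGACGCTGCaggctgga
PSMD3, upstream: ccctttgtTGACTCGGCcatcggcc
PSMD3, downstream: ttgcagctGCTCCGTCAtcgtgcgg
PSME1: ggcagggcTGACCCCGCctcctcca
PSME2: ctggactgTGACCCAGCcagcaccg

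The members with a part in the proteasome took a near constant share of the summed normalized counts in every condition. The 39 such genes in the PF8503 table summed to 124869 normalized counts with vehicle and 125847 with PF8503. These are 1.1868% and 1.1999% of the table totals, which cover only the counted codons of the listed genes. The 40 genes in the PF846 table summed to 114364 with vehicle and 115937 with PF846, or 1.1879% and 1.2049%. Whether these shares differ was not tested.

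With vehicle, the median footprint density was highest over the core subunits and lowest over the chaperones. Density is the authors' vehicle mean in the PF8503 table divided by the codons counted, from codon 10 to 10 codons before the end of the GENCODE version 44 canonical coding sequence. The median was 14.7 normalized counts per codon over the 11 core subunits, 8.54 over the 19S base, 9.07 over the lid, 6.82 over the activators and 2.90 over the chaperones with a value. PSMF1, the inhibitor, stood at 10.9. Single genes departed from this order, with PSME4 (0.991) and PSMA1 (1.24) below every chaperone with a value. PSMC3IP was at 0.506, below every gene with a part in the proteasome.

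**Figure D1:**
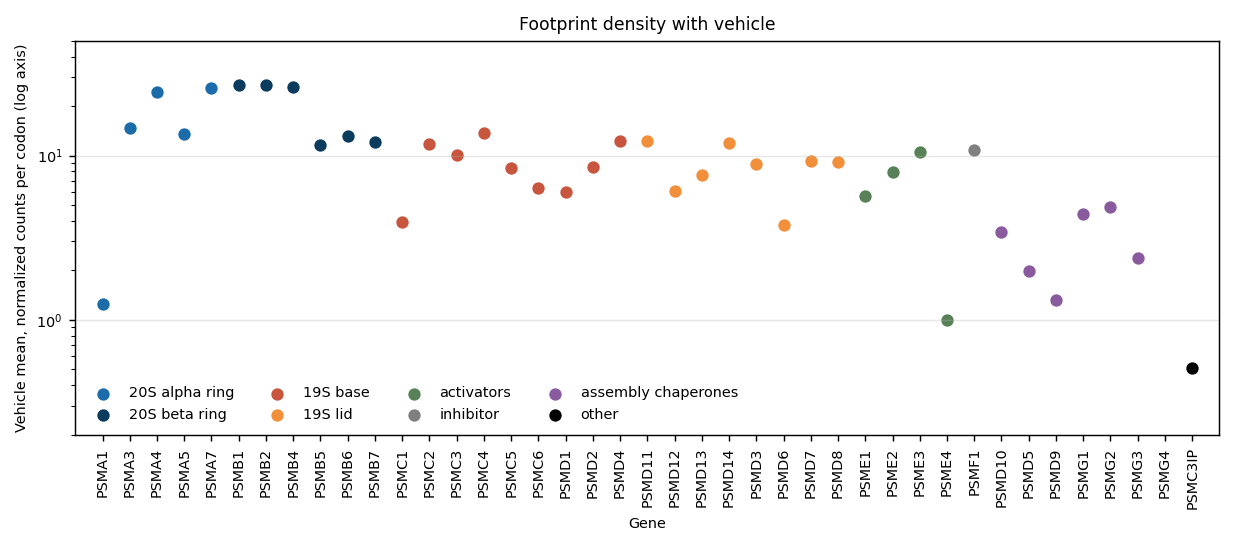
Footprint density with vehicle for each member, in normalized counts per codon on a log axis, colored by sub-complex. Each point is the authors' mean over the vehicle libraries, PSMG4 has no value in this table, and the core subunits reach 27.1 while PSMA1 lies at 1.24.

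The core subunits fell into tiers that were seen only in these values. The beta subunits without an active site that have a value were within a narrow range. PSMB1 was at 27.1, PSMB2 at 26.7 and PSMB4 at 26.3 normalized counts per codon, and PSMB3 has no value here. The catalytic subunits were also close to each other, with PSMB5 (chymotrypsin-like) at 11.7, PSMB7 (trypsin-like) at 12.1 and PSMB6 (caspase-like) at 13.2, a coefficient of variation of 6.45%. The median of the former set was 2.20 times that of the latter. In the alpha ring PSMA7 (25.9) and PSMA4 (24.4) lay with the upper tier, and PSMA3 (14.7) and PSMA5 (13.5) with the lower. The lowest of the upper 5 was 1.65 times the highest of the lower 5. The ratio of the tier medians was 1.99 with vehicle, 2.03 with PF8503 and 2.02 with PF846. No test was made of these ratios, and the codons are those of a newer annotation than the authors used. Where the authors counted only 3′ of a stall in both tables, the density given here is too low.

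PSMA1 stood apart from the rest of the core. This alpha subunit (ENSG00000129084, GRCh38 here and below, chromosome 11, 14504874 to 14643635, reverse strand) had a vehicle mean of 305 normalized counts, or 1.24 per codon, and PSMA7 was 20.8 times as dense. Only reads with a single position in the authors' reference were counted, so sequence shared with another coding transcript lowers a count. In GENCODE version 44 none of the 30-base stretches of the counted PSMA1 region occurs in the canonical coding transcript of another gene (0 of 706). Among the standard subunits a shared stretch was found only in PSMA2, where 85.6% occur in another gene. PSMA6 (0 of 655) and PSMB3 (0 of 532) also shared none, yet neither core subunit has a value here. A lack of shared stretches in version 44 therefore does not go with a high count in each case. The authors' reference was version 24, and the part of shared sequence in the PSMA1 value was not tested there. Without PSMA1 the coefficient of variation over the core was 35.5%, against 48.0% with it.

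Within the 19S particle the coefficient of variation was 36.1% over the members of the base and 32.7% over those of the lid. The 19S subunits ADRM1 and SEM1 (listed as SHFM1) are outside these sets by their symbols, and had densities of 15.5 and 19.8 normalized counts per codon, above every member of the base and lid. Among members of the base the ATPase PSMC4 was highest, at 13.8 normalized counts per codon, and the ATPase PSMC1 lowest, at 3.92, a ratio of 3.50. The ubiquitin receptor PSMD4 was at 12.2 and the scaffold subunits PSMD2 and PSMD1 at 8.54 and 5.96. Among members of the lid PSMD11 was highest at 12.3, next to PSMD14 at 11.8, and PSMD6 lowest at 3.78. PSMD7, which pairs with PSMD14, was at 9.22. The chaperonin ring CCT, another complex of fixed composition, had a coefficient of variation of 27.3% over its 8 subunits. Subunits are not replicates, and these spreads were not compared by a test.

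The activators ranged more widely. PSME1 and PSME2, which form a mixed ring and lie near each other on chromosome 14, were at 5.69 and 7.96, a ratio of 1.40. PSME3, the nuclear activator, was at 10.5, and PSME4, a protein of 1844 codons counting the stop, at 0.991. Among chaperones with a PF8503 value PSMG2 (4.84) and PSMG1 (4.39), which act as a pair on the alpha ring, were highest. PSMD9 (1.33) was lowest of these. PSMG4 is in the PF846 table only, where its vehicle density was 0.659, below that of PSMD9 there (1.21).

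With neither compound did a member differ from vehicle by 1.2-fold. For PF8503 this was 0 of 40 members, while 7.05% of all transcripts passed that fold in either direction. For PF846 it was 0 of 41 members, against 3.33% of all transcripts. The log2 ratio of the mean with compound to the mean with vehicle had a median of 0.006 over the members with PF8503 (0.013 over all transcripts) and of 0.011 with PF846 (0.00086 over all). With PF8503 22 members were above 0 and 18 below, and with PF846 23 and 18, while 45.3% and 49.7% of all transcripts were below 0. At 1.1-fold, 1 member was higher with PF8503 (14.1% of all transcripts) and 3 were lower (11.6%). With PF846 at that fold 0 members were higher (7.41% of all transcripts) and 3 were lower (8.27%).

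**Figure D2:**
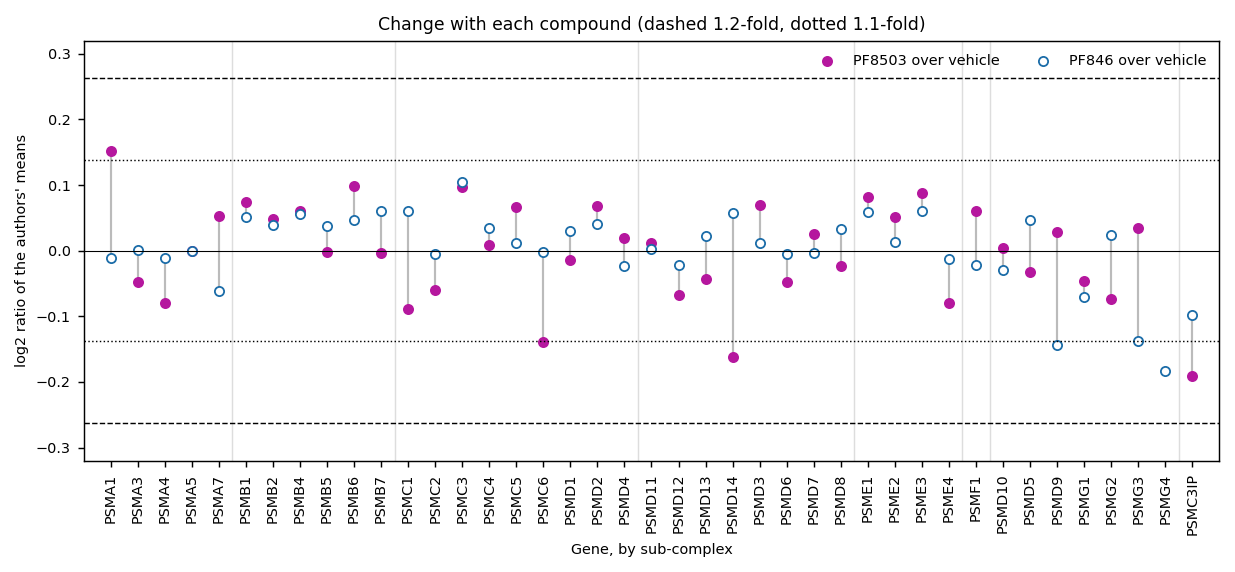
The log2 ratio of the authors' means for each member, PF8503 over vehicle (filled) and PF846 over vehicle (open), in order of sub-complex. All points lie between the dashed lines at 1.2-fold, and 4 with PF8503 and 3 with PF846 lie outside the dotted lines at 1.1-fold.

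Depth bears on these counts. Ratios spread less for transcripts with many reads, and 34 members had a mean of at least 1000 normalized counts in each table. Over these 34 the SD of the log2 ratio was 0.069 with PF8503 and 0.037 with PF846. Over all transcripts of that depth it was 0.140 (n = 2175) and 0.092 (n = 2011). The 2 sets share only the floor of 1000 and were not matched further in depth. The central 95% of all transcripts above that floor ran from -0.252 to 0.182 with PF8503. With PF846 it ran from -0.131 to 0.124, and the SDs over all transcripts include the tails outside these limits. Past 1.2-fold were 2.9% of these transcripts with PF8503 and 1.19% with PF846, and 0% of the 34. A ratio of 1.1-fold or more was found for 5.88% of the 34 with PF8503, against 13.0% of all transcripts of that depth, and for 0% with PF846, against 3.98%. These are spreads over genes, not errors of a value.

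**Figure D3:**
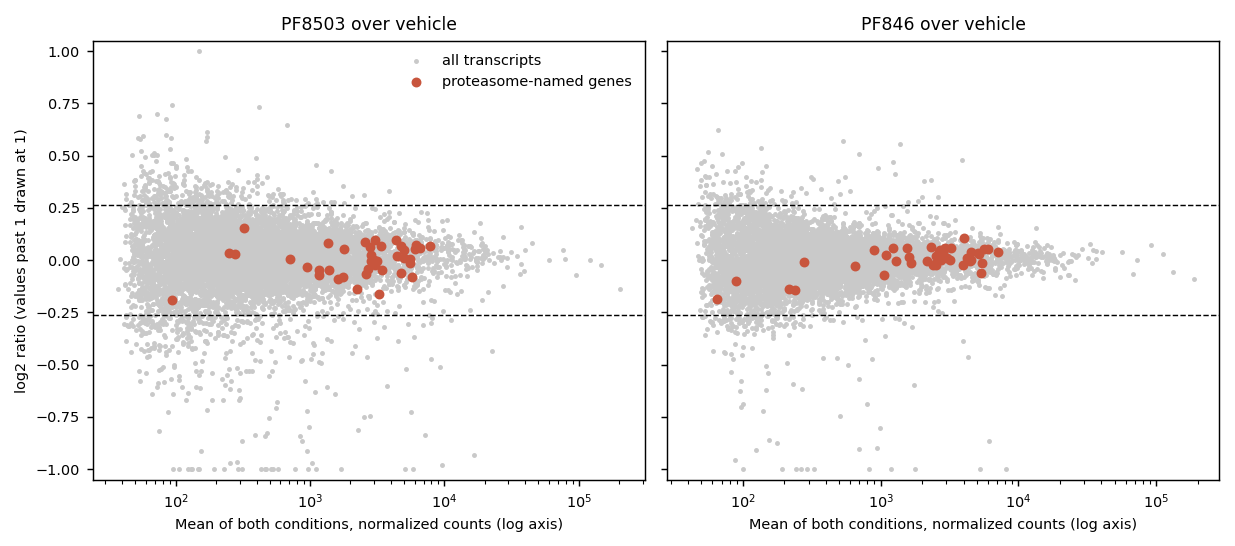
The log2 ratio against the mean of both conditions in normalized counts on a log axis, for all transcripts (grey) and the members (red), with PF8503 on the left and PF846 on the right. The members stay within 1.2-fold (dashed), and those with PF846 that pass 1.1-fold have low means.

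The members at the ends of the PF8503 range came from several sub-complexes. PSMD14 (ENSG00000115233, chromosome 2, 161308425 to 161411717, forward strand) had a mean of 3459 normalized counts with vehicle and 3090 with PF8503, a log2 ratio of -0.16. With PF846 the means were 3166 and 3296, a log2 ratio of 0.058. It is the lid member with the lowest ratio for PF8503 and the highest for PF846. PSMC6, an ATPase of the base (ENSG00000100519, chromosome 14, 52707178 to 52728590, forward strand), had 2362 with vehicle and 2144 with PF8503, a log2 ratio of -0.14, and -0.0019 with PF846. PSMC3IP, outside the complex, was lowest of the 40 with a PF8503 value, with 101 and 88.2, a log2 ratio of -0.19, and -0.098 with PF846. PSMA1 was highest with PF8503, with 305 and 339, a log2 ratio of 0.15, and -0.011 with PF846. PSMB6 followed at 0.098 and PSMC3 at 0.097.

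With PF846 the lowest members were chaperones with few counts. PSMG4 (ENSG00000180822, chromosome 6, 3231403 to 3303373) had 69.2 normalized counts with vehicle and 60.9 with PF846, a log2 ratio of -0.18. PSMD9, a chaperone of the base (ENSG00000110801, chromosome 12, 121888732 to 121918297), had 249 and 225, a log2 ratio of -0.14, and PSMG3 had 226 and 205, a log2 ratio of -0.14. PSMD9 and PSMG3 were at 0.028 and 0.034 with PF8503. PSMC3, an ATPase of the base, was highest, with 3891 and 4183, a log2 ratio of 0.10, close to its value with PF8503. PSME3 and PSMB7 followed at 0.061 and 0.060.

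By role, the ratios of the beta ring lay closest together among the sub-complexes with PF846, with an SD of 0.0089 over its members. All 6 of its measured members were above vehicle with PF846, between 0.037 (PSMB5) and 0.060 (PSMB7), with a median of 0.050. Of the CCT subunits 7 of 8 were above vehicle with PF846, with an SD of 0.018, as were 50.3% of all transcripts and 55.2% of those with a mean of at least 1000. With PF8503 4 of the 6 were above 0 with a median of 0.054, while PSMB5 (-0.0023) and PSMB7 (-0.0039) lay at the vehicle level. The sum over the beta ring was 3.62% higher with PF8503 and 3.48% higher with PF846. Alpha subunits had medians near 0, at 0.000063 with PF8503 and -0.011 with PF846, and their sum changed by -0.944% and -1.59%. The medians over the base were 0.008 and 0.030, and over the lid -0.033 and 0.0073. Activators had medians of 0.067 and 0.036, with PSME4 the only one below 0 (-0.080 and -0.013). Chaperones had medians of -0.014 and -0.070. PSMF1 was at 0.061 and -0.021. The compounds were set against the same vehicle libraries, so that a deviation of the vehicle mean moves both ratios together.

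The spread of density, as a coefficient of variation, changed little over the core, base and lid with either compound. Over the catalytic subunits it changed little with PF846 and rose with PF8503. This measure can stay the same while members move against each other, so it does not show that the proportions held. With PF8503 the SD of the log2 ratio was 0.067 (core), 0.079 (base), 0.070 (lid) and 0.059 (catalytic subunits). With PF846 these SDs were 0.038, 0.039, 0.025 and 0.011. The coefficient of variation of density over the core was 48.0% with vehicle, 48.9% with PF8503 and 48.0% with PF846. Over the base it was 36.1%, 37.4% and 35.7%, and over the lid 32.7%, 32.7% and 33.5%. Over the 3 catalytic subunits it was 6.45%, 10.6% and 6.64%, with PSMB6 at 14.1 normalized counts per codon with PF8503 and PSMB5 and PSMB7 at 11.6 and 12.1. The ratio of PSME2 to PSME1 was 1.40, 1.37 and 1.36. That of PSMB1 to PSMD14 was 2.28, 2.69 and 2.27, and that of PSMC4 to PSMC1 3.50, 3.75 and 3.44. PSME3 to PSME4 stood at 10.6, 11.9 and 11.2, and PSMA7 to PSMA1 at 20.8, 19.4 and 20.1, in the same order.

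PF8503 and PF846 were compared at their common dose and time, over 40 members in both tables. Between the tables the vehicle means stood in a ratio of 1.09 for all 40, to within 0.0001 on the log2 scale, so the same codons were counted for both compounds and the vehicle cancels from the difference. The median difference of the log2 ratios, PF8503 minus PF846, was 0.0028 over the members and 0.011 over all 8775 transcripts. A difference of 1.2-fold was found for 0 of 40 members, against 5.83% of all transcripts. Of transcripts with a mean of at least 1000, 2.35% differed by 1.2-fold and 10.6% by 1.1-fold. Of members of that depth 8.82% differed by 1.1-fold. At 1.1-fold 3 members were higher with PF8503 (13.5% of all transcripts), namely PSMG3 and PSMD9 at 0.17 each and PSMA1 at 0.16. Another 3 were lower with PF8503 (10.5%), namely PSMD14 at -0.22, PSMC1 at -0.15 and PSMC6 at -0.14. Below 0 were 19 of the 40 members (47.5%), beside 46.1% of all transcripts and 50.3% of those with a mean of at least 1000. By role these were 2 of 5 alpha and 2 of 6 beta subunits, 6 of 9 members of the base, 5 of 8 of the lid, 1 of 4 activators, 2 of 6 chaperones and PSMC3IP, and 7 of the 8 CCT subunits were below 0. No interval of these differences can be given without single libraries, and small differences do not show that the compounds act alike.

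**Figure D4:**
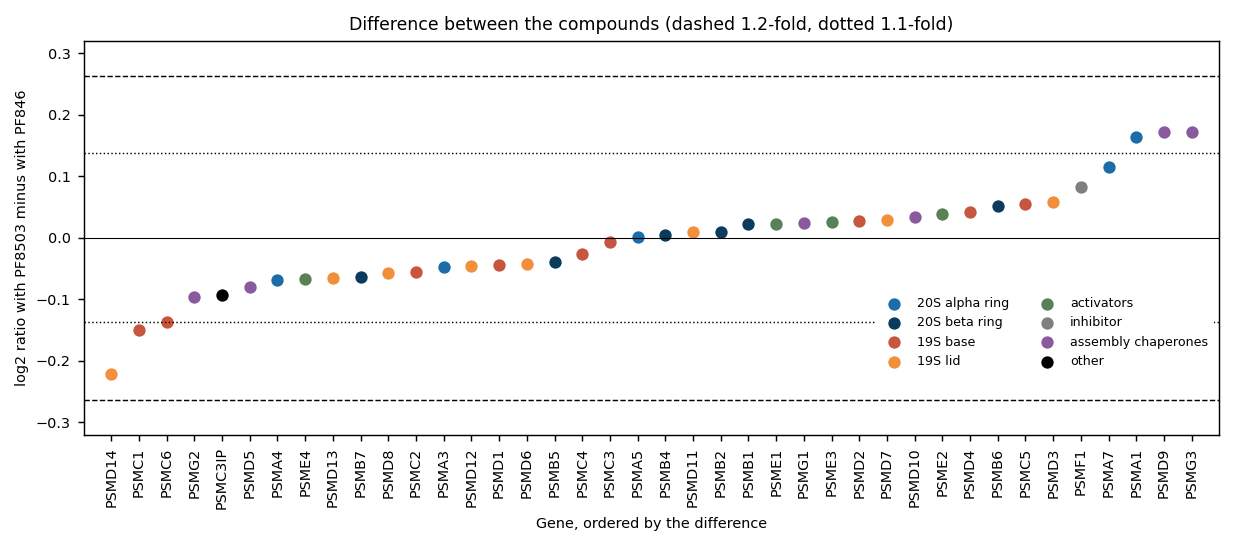
Difference of the log2 ratios, PF8503 minus PF846, for the 40 members in both tables, ordered by value and colored by sub-complex. PSMD14 is the lowest at -0.22, PSMG3 the highest at 0.17, and all lie between the dashed lines at 1.2-fold.

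Other genes of the pathway were taken from a list of 31 that are all in both tables. At 1.2-fold 0 of 31 passed with either compound. Their median log2 ratio was -0.052 with PF8503, with 21 below 0, and -0.022 with PF846, with 22 below 0. Over all transcripts the medians were 0.013 and 0.00086, with 45.3% and 49.7% below 0. At 1.1-fold 1 gene of the list was higher with PF8503 (14.1% of all transcripts) and 2 were lower (11.6%). With PF846 0 were higher (7.41%) and 0 lower (8.27%). TXNL1, a thioredoxin-like protein bound to the 19S particle, had 1781 normalized counts with vehicle and 1592 with PF8503, a log2 ratio of -0.16, and -0.043 with PF846. POMP, the maturation factor of the core, had 2256 and 2026, a log2 ratio of -0.15, and -0.12 with PF846, the lowest of the list there. NFE2L1, the gene of NRF1, had 1991 and 2213, a log2 ratio of 0.15, and 0.059 with PF846. ADRM1, a ubiquitin receptor of the 19S particle, was at 0.099 and -0.022, SEM1 at -0.066 and -0.11, and the deubiquitinating enzymes USP14 and UCHL5 at -0.079 and -0.11 with PF8503 and -0.017 and -0.046 with PF846. The shuttle factors RAD23B, UBQLN1, UBQLN2 and UBQLN4 were below 0 with both compounds, from -0.13 (UBQLN1) to -0.0051 (UBQLN4) with PF8503. The unfoldase VCP, with 16356 normalized counts the most abundant of the list, was at 0.045 and 0.058. The ubiquitin genes UBB and RPS27A were at 0.0041 and -0.079 with PF8503.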

How the data were processed

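Adapters (FASTX toolkit) and ribosomal RNA reads (Bowtie) were removed by the authors, who aligned the rest to canonical coding transcripts (GENCODE version 24, GRCh38) and kept reads with 1 position. Reads were summed 3' of DMax, the codon where cumulative reads with compound and vehicle differ most, where its Z score reached 2, or else from codon 10. Deposited signal values are DESeq means per condition, made by the authors. Versions are not given in the sources used here. The study's script numbers the replicates differently from the labels. The deposited tables also hold fold changes and p-values, which were not used.

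From the means, log2 ratios without pseudocount and densities per codon were computed with Python 3.11.15, numpy 2.4.6 and pandas 2.3.3, and plotted with matplotlib 3.10.9. Positions and codons are from GENCODE version 44, which matched 99.5% of symbols. The vehicle means of both tables show whether the same codons were counted, with a tolerance of 0.002 (log2). The ratio step was run on simulated counts with 1.5-fold changes and Poisson noise, scored at means of at least 100. That simulation held no variance between libraries and no changes of 1.1- or 1.2-fold, so it does not test calls at those folds. Members and lists were chosen with earlier results of these data known. All members may be named. Described in full are the 3 lowest and 3 highest members per compound, those that differ most between compounds, the catalytic subunits and the extremes of density. The core tiers, a mean of at least 1000 and leaving out PSMA1 were chosen after the values were seen. Other alternatives were folds of 1.1 and 1.5, a mean of at least 100, a pseudocount of 1, centring, and other codons or vehicle means. Some genes of the pathway list are counted in it and not reported here by name.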

Additional observations from a re-analysis of the deposited data

How the results depend on the processing

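At 1.1-fold in place of 1.2-fold the members past the threshold were 4 with PF8503, 3 with PF846 and 6 between the compounds, and those of the pathway list were 3, each against 0. At 1.5-fold each count was 0. The counts of members stayed at 0 with a mean of at least 100 or 1000, a pseudocount of 1, centring on the median, and without PSMC3IP, and the medians moved by less than 0.05 on the log2 scale. Centring put the median with PF8503 at -0.0066 in place of 0.0062, and that of the difference between compounds at -0.0086 in place of 0.0028. The coefficient of variation over the core was 35.5% without PSMA1 and 47.8% over all codons. The density of the core was 13.6 over all codons and 13.5 from the PF846 table. The replacing subunits gave no value for the alternative that adds them. No paired analysis was possible because the columns hold means over libraries, and leaving out a replicate was not possible for the same reason. Low counts limit PSMG4, PSMC3IP, PSMG3, PSMD9 and PSMA1.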
